A study of Homo sapiens with 2 samples.

Results

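Dividing cells were described within single-cell profiles of HUVECs, primary endothelial cells from the lining of the human umbilical vein, which divide in culture. A barcode, which stands for 1 captured cell, was taken as cycling when it held 5 or more unique molecular identifiers (UMIs, counted RNA molecules) summed over MKI67, TOP2A, CENPF, UBE2C, TPX2, BIRC5, CDK1 and CCNB1. Only barcodes with 5000 or more UMIs and at most 10% of them from mitochondrial genes were considered. The rule found 191 cycling barcodes among 2138 that passed this filter and 5493 in all: 103 of 1369 in the 5% pdRBC library and 88 of 769 in the hRBC library.

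In both groups the HUVECs had grown to a closed layer in microfluidic channels of 50 µm over about 48 hours and were then perfused with red blood cells for 4 hours. In the 5% pdRBC group, 5% of these were dehydrated red cells: nystatin and sucrose washes had raised their hemoglobin concentration (MCHC) to 40 to 42 g/dL. The remaining red cells of that group, and every red cell of the hRBC group, were healthy. With 1 library (5′ single-cell RNA) per group, the spread between devices or cultures is unknown. Differences between the groups therefore have no check by replicates and were not tested.

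A dividing cell copies its DNA in S phase and separates the copies in mitosis, after the gap called G2. Cyclin-dependent kinase 1 with cyclin B starts mitosis, Aurora and Polo kinases run it, and the anaphase-promoting complex ends it by marking cyclin B and securin for breakdown. Many genes of G2 and mitosis are switched on late in the cycle by the MuvB complex with B-MYB and FOXM1, which binds the CHR element of their promoters, often beside CCAAT boxes. In blood vessels most endothelial cells rest, and division is a feature of growth, repair and culture.

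The libraries differed in depth. The 1635 barcodes of the 5% pdRBC library had a median of 9425 UMIs and the 3858 of the hRBC library a median of 1381, so that 83.7% of the 5% pdRBC barcodes and 19.9% of the hRBC barcodes passed the filter. Cycling barcodes had medians of 11868 UMIs and 4125 genes in the 5% pdRBC library, against 15204 UMIs and 4500 genes in the hRBC library. The other filtered barcodes had medians of 10106 UMIs (5% pdRBC) and 11932 UMIs (hRBC). Ribosomal protein genes took 15.9% of the UMIs of the cycling barcodes in the 5% pdRBC library and 17.9% in the hRBC library. The libraries shared 9 barcode sequences, none of them cycling in both, and 3 cycling barcodes of each library held more than 25000 UMIs.

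The cycling barcodes carried endothelial genes. Each of the 103 cycling barcodes of the 5% pdRBC library and each of the 88 of the hRBC library held a UMI of at least 3 of 10 endothelial markers, which include PECAM1, CDH5 and VWF. These 10 markers summed to 3671 CPM (UMIs scaled to the same total in each sum, as counts per 1000000) in 5% pdRBC cycling barcodes and 3906 CPM in the other 5% pdRBC barcodes, and to 3478 CPM in hRBC cycling barcodes and 4063 CPM in the other hRBC barcodes. All 5 erythroid, all 4 neutrophil and all 4 epithelial markers were at 0 in the cycling barcodes of both libraries. The 5 monocyte markers had 29 UMIs in 26 cycling barcodes of the 5% pdRBC library and 36 UMIs in 27 of the hRBC library. In 5% pdRBC and hRBC cycling barcodes, T and NK cell markers had 3 and 10 UMIs and lymphatic markers 2 and 6. Platelet markers had 1 UMI in each, and B cell markers 0 and 1. Of 9 fibroblast and mural markers, COL1A1, PDGFRB and LUM were at 0, and the list summed to 274 CPM in 5% pdRBC cycling barcodes and 341 CPM in hRBC cycling barcodes. RGS5 gave 352 of the list's 368 UMIs in the 5% pdRBC library and 469 of 481 in the hRBC library.

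The share of cycling barcodes was 7.52% in the 5% pdRBC library (exact binomial 95% interval 6.18 to 9.05) and 11.4% in the hRBC library (9.28 to 13.9). All intervals here are exact Clopper-Pearson intervals and cover counting error only. The rule counts raw UMIs, so a deeper barcode passes it more easily, and the hRBC barcodes were deeper. After each barcode was thinned to 5000 UMIs, 67 (4.89%, 3.81 to 6.17) of the 5% pdRBC barcodes and 43 (5.59%, 4.08 to 7.46) of the hRBC barcodes still passed, and these intervals overlap. With a sum of 3 or more required after the thinning, a choice made after seeing the data, the share was 6.79% (5.52 to 8.26) in the 5% pdRBC library and 9.88% (7.87 to 12.2) in the hRBC library. With 5 UMIs required per 10000 instead, the share was 6.94% in the 5% pdRBC library and 10.5% in the hRBC library. The filter sets the order as well: set against all deposited barcodes, the same cycling barcodes were 6.30% of the 5% pdRBC library and 2.28% of the hRBC library. No order of the libraries is therefore read from these shares.

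Most barcodes had no UMI of the 8 genes: 1036 (75.7%) in the 5% pdRBC library and 526 (68.4%) in the hRBC library. Just outside the limit, 5 of the 5% pdRBC and 10 of the hRBC barcodes had a sum of 4. Just inside it, 12 of the 5% pdRBC and 7 of the hRBC barcodes had a sum of 5. The median sum of a cycling barcode was 12 UMIs in the 5% pdRBC library (5 to 86) and 13 UMIs in the hRBC library (5 to 71). Barcodes became few near the limit and continued above it in a long upper tail, as the plot of barcodes by their sum shows.

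**Figure D1:**
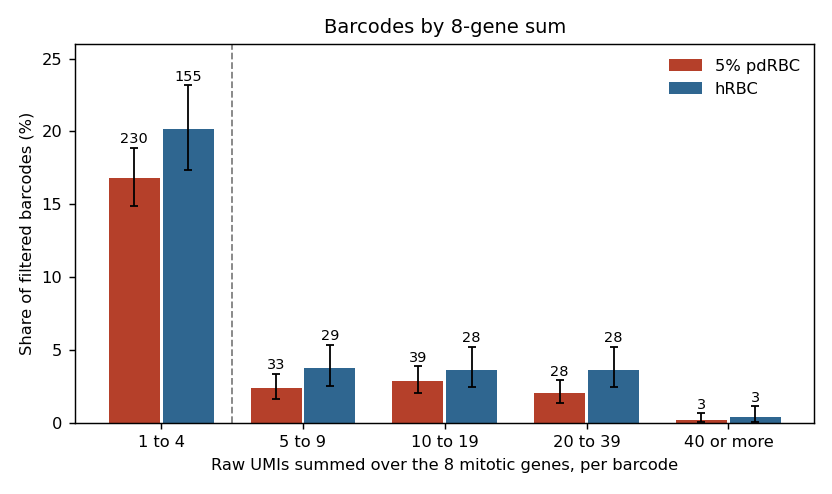
Share of filtered barcodes (y axis, percent) by the raw UMIs summed over the 8 genes (x axis), in the 5% pdRBC library (red) and the hRBC library (blue), with exact 95% intervals of counting error and the number of barcodes above each bar. The dashed line marks the limit of 5 UMIs, barcodes with a sum of 0 are not drawn, and 31 barcodes of each library lie at 20 or more.

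The 8 genes of the rule chose the cycling barcodes, so their levels there are a description. MKI67 codes for the Ki-67 protein that coats mitotic chromosomes and is absent from resting cells. The gene lies at chr10:128096659-128126385 on the minus strand (GRCh38, GENCODE 29). It stood at 291 CPM in 5% pdRBC cycling barcodes and 2.20 CPM in the other 5% pdRBC barcodes, and at 174 CPM in hRBC cycling barcodes and 2.23 CPM in the other hRBC barcodes. TPX2, which directs Aurora A to spindle microtubules, had 201 CPM in 5% pdRBC and 156 CPM in hRBC cycling barcodes. UBE2C, the ubiquitin-conjugating enzyme of the anaphase-promoting complex, had 189 CPM in 5% pdRBC and 167 CPM in hRBC cycling barcodes. Each of the 8 genes was seen in fewer than 8% of the other barcodes of either library.

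TOP2A (the topoisomerase that untangles DNA), CDK1, BIRC5 (survivin, of the chromosomal passenger complex) and CCNB1 (cyclin B) lay close between the libraries. TOP2A had 106 CPM in 5% pdRBC and 99.9 CPM in hRBC cycling barcodes, and CDK1 had 90.2 CPM in 5% pdRBC and 83.6 CPM in hRBC. BIRC5 had 127 CPM in 5% pdRBC and 130 CPM in hRBC, and CCNB1 had 70.8 CPM in 5% pdRBC and 73.0 CPM in hRBC. All 4 folds between the libraries lay within their counting error. CENPF, a protein of the outer kinetochore, had the lowest fold of the 8, with 163 CPM in 5% pdRBC and 193 CPM in hRBC (0.847, 0.705 to 1.02). A cycling barcode showed a median of 6 of the 8 genes in both libraries, and 93 of 103 in the 5% pdRBC library and 82 of 88 in the hRBC library showed 4 or more.

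**Figure D2:**
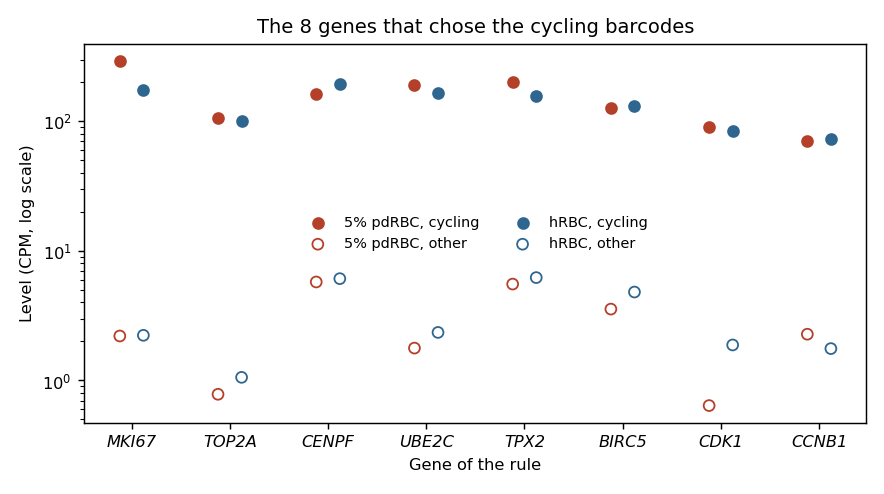
Level of each gene of the rule (y axis, CPM on a log scale) in cycling barcodes (filled) and other barcodes (open) of the 5% pdRBC library (red) and the hRBC library (blue), each point the sum over 1 library. MKI67 is the gene whose filled points lie furthest apart, at 291 CPM in 5% pdRBC and 174 CPM in hRBC.

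MKI67 was 1.68-fold higher in 5% pdRBC than in hRBC cycling barcodes (95% interval 1.43 to 1.98, 391 against 245 UMIs). Since MKI67 itself takes part in the rule, the cycling barcodes were also chosen by the other 7 genes alone. The fold was then 1.70 (1.44 to 2.02). This choice still counted raw UMIs, which a deeper barcode passes more easily. Under the full rule, cycling barcodes had median depths of 11868 UMIs in 5% pdRBC and 15204 UMIs in hRBC. Genes of the rule had medians of 11.0 UMIs per 10000 in 5% pdRBC and 9.06 in hRBC cycling barcodes. The part of the raw count in the MKI67 fold was not tested. MKI67 was detected in 96 of 103 cycling barcodes of the 5% pdRBC library and in 75 of 88 of the hRBC library. Each barcode was also thinned to 5000 UMIs, after the rule was applied. MKI67 was then detected in 69.9% of the 5% pdRBC and 58.0% of the hRBC cycling barcodes. It was detected in 1.42% of the other 5% pdRBC and 1.47% of the other hRBC barcodes. TPX2 was 1.29-fold higher (1.07 to 1.54), and the intervals of the other 6 genes held 1.

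The cycling barcodes differed from the other barcodes of their own library in a broad set of genes that the rule did not name. These genes were measured in the cells that were selected, so the folds describe the selection and test nothing. Of 10703 genes with 100 or more UMIs over these sums, 715 (6.68%) were 1.5-fold or more higher in the cycling barcodes of both libraries and 287 (2.68%) were lower in both. Within the 5% pdRBC library alone 12.7% of the genes were higher and 6.69% lower, and within the hRBC library 10.9% were higher and 10.2% lower. The median log2 fold of all genes was 0.06 in the 5% pdRBC library and 0.02 in the hRBC library.

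Most of the 15 genes furthest above the other barcodes in both libraries are known for roles in cell division. They were ranked by the lower of their 2 folds among genes with 100 or more UMIs in the cycling barcodes of both libraries together. Genes below that minimum could not enter, such as CKAP2L at 73.4-fold in 5% pdRBC and 42.2-fold in hRBC, and NCAPH at 41.5-fold in 5% pdRBC and 45.5-fold in hRBC. CDCA8 (borealin) and AURKB (Aurora B) are parts of the chromosomal passenger complex with BIRC5. CDCA8 had 73 UMIs in 5% pdRBC cycling barcodes and 7 in the other 5% pdRBC barcodes, a 103-fold difference in CPM (50.5 to 281). In the hRBC library it had 74 and 2 UMIs, a ratio of 180 (59.7 to 1878) that rests on those 2 UMIs. AURKB was 125-fold higher in 5% pdRBC cycling barcodes and 47.1-fold higher in hRBC cycling barcodes. PLK1, the Polo kinase, had 90.2 CPM in cycling and 2.13 CPM in other 5% pdRBC barcodes, and 96.4 CPM in cycling and 2.23 CPM in other hRBC barcodes, which is 41.8-fold in 5% pdRBC and 42.2-fold in hRBC. CDC20, the activator that turns the anaphase-promoting complex on, was 38.4-fold higher in 5% pdRBC and 41.7-fold higher in hRBC cycling barcodes.

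The rest of these 15 were spindle and chromosome genes. ASPM, a protein of the spindle poles, was 79.2-fold higher in 5% pdRBC and 84.8-fold higher in hRBC cycling barcodes. The kinesins KIF4A and KIF11, the microtubule proteins HMMR, DLGAP5 and NUSAP1, the abscission protein CEP55, the centromere chaperone HJURP, the condensin subunit NCAPG, the histone chaperone ASF1B and DEPDC1 made up the others. Their folds lay between 36.2 and 80.4 in the 5% pdRBC library and between 34.1 and 67.5 in the hRBC library.

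Promoter sequences of these genes were read from a RefSeq table of windows from 250 bases before to 50 after each gene's start (GRCh38.p14), in which all 15 genes had an entry. They were searched on both strands for TTTGAA, the letters of the CHR element, which read TTCAAA from the opposite strand. They were also searched for CCAAT, which reads ATTGG from the opposite strand. TTTGAA was found in 14 of the 16 windows of the 15 genes (87.5%), in 1 or more windows of every gene but AURKB, against 15.2% of all 35116 windows of the table. CCAAT was found in 15 of the 16 windows (93.8%), against 34.6% of all windows. Over the 5 mitotic gene lists described below, TTTGAA was in 57 of 129 windows (44.2%), against 7.27% of the windows of the S phase list and 23.8% of those of the endothelial list. Of the 8 genes of the rule, 5 had an entry, and 4 of these held TTTGAA. A match is a run of letters, not a shown binding site, and a window without a match says nothing about the factor.

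The 120 bases before the start are shown for MKI67, the gene of the rule that differed most between the libraries, for PLK1, CDC20 and CDCA8, which hold both motifs, and for AURKB, whose 120 bases shown hold neither. They run 5′ to 3′ on the gene's strand, with both motifs in capitals. The MKI67 window is chr10:128126424-128126543 (minus strand), that of PLK1 chr16:23678769-23678888 (plus strand) and that of CDC20 chr1:43358861-43358980 (plus strand). The CDCA8 window is chr1:37692396-37692515 (plus strand) and that of AURKB, for the most upstream of its 2 starts, chr17:8210250-8210369 (minus strand).
MKI67: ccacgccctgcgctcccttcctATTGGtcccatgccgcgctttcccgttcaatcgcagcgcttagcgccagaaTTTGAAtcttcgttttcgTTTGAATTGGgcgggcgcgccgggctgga
PLK1: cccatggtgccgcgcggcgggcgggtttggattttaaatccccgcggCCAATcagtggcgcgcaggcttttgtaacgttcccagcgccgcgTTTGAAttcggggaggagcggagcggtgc
CDC20: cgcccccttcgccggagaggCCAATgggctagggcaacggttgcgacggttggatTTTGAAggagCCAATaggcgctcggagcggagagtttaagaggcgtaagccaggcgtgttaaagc
CDCA8: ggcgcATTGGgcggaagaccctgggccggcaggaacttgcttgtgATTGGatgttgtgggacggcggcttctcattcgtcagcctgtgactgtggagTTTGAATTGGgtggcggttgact
AURKB: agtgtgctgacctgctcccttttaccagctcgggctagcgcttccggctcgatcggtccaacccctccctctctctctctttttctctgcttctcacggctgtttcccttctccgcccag
In the MKI67 window TTTGAA occurs at 2 places, and the second shares 1 base with an ATTGG, as the only TTTGAA of CDCA8 does. PLK1 and CDC20 each hold 1 TTTGAA, in CDC20 close to the second of 2 CCAAT motifs.

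The gene lists show how far the selection reached beyond mitosis. Of the 88 measured genes of the 5 mitotic lists (112 genes: kinases and cyclins, anaphase-promoting complex, kinetochore, spindle and cytokinesis), 70 were past 1.5-fold higher in the cycling barcodes of both libraries and 0 were lower in both, beside 6.68% and 2.68% of all measured genes. Their median log2 fold was 3.40 in the 5% pdRBC library and 3.29 in the hRBC library, against 0.06 (5% pdRBC) and 0.02 (hRBC) for all genes. The 9 measured cytokinesis genes, with ANLN (anillin, of the cleavage furrow) and KIF23, were all higher, and their sum was 28.4-fold higher in 5% pdRBC and 20.1-fold higher in hRBC cycling barcodes.

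S phase genes were higher in the cycling barcodes as well. Of 39 measured genes of the S phase list, 35 were past 1.5-fold higher in both libraries. Their median log2 fold was 2.54 in the 5% pdRBC library and 2.27 in the hRBC library, and the list's UMIs were 6.13-fold (5.85 to 6.42) higher in 5% pdRBC and 4.57-fold (4.33 to 4.83) higher in hRBC cycling barcodes. RRM2, a subunit of the ribonucleotide reductase that makes DNA building blocks, was 63.0-fold higher in 5% pdRBC and 27.3-fold higher in hRBC cycling barcodes. Condensin, chromatin and lamin genes were higher in 18 of 18 measured, among them HMGB2, at 12.5-fold in 5% pdRBC and 8.43-fold in hRBC. The regulator MYBL2 (B-MYB) was 20.6-fold higher in 5% pdRBC and 14.4-fold higher in hRBC cycling barcodes. FOXM1 was 18.4-fold higher in 5% pdRBC and 11.0-fold higher in hRBC cycling barcodes.

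The endothelial program stood beside the division genes at a slightly lower level than in the other barcodes. None of the 21 measured genes of the endothelial list was past 1.5-fold in both libraries. In each library alone 2 were past 1.5-fold lower and 0 higher, beside 6.69% (5% pdRBC) and 10.2% (hRBC) of all genes lower. Relative to the other barcodes, the list's UMIs were 0.946-fold (0.926 to 0.967) in 5% pdRBC and 0.885-fold (0.866 to 0.904) in hRBC cycling barcodes. KDR, the main receptor for vascular endothelial growth factor, was lower, at 0.744-fold in 5% pdRBC and 0.499-fold in hRBC cycling barcodes. Among the 10 genes furthest below the other barcodes in both libraries were the nuclear RNA NEAT1 (0.442-fold in 5% pdRBC, 0.381-fold in hRBC) and HMOX1, the heme-degrading enzyme (0.378-fold in 5% pdRBC, 0.509-fold in hRBC). MXD4, which opposes MYC, was at 0.487-fold in 5% pdRBC and 0.450-fold in hRBC cycling barcodes. CITED2, ADCY4, MIR22HG, ADAMTS1, ESM1, RGCC and FOSB completed the 10.

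**Figure D3:**
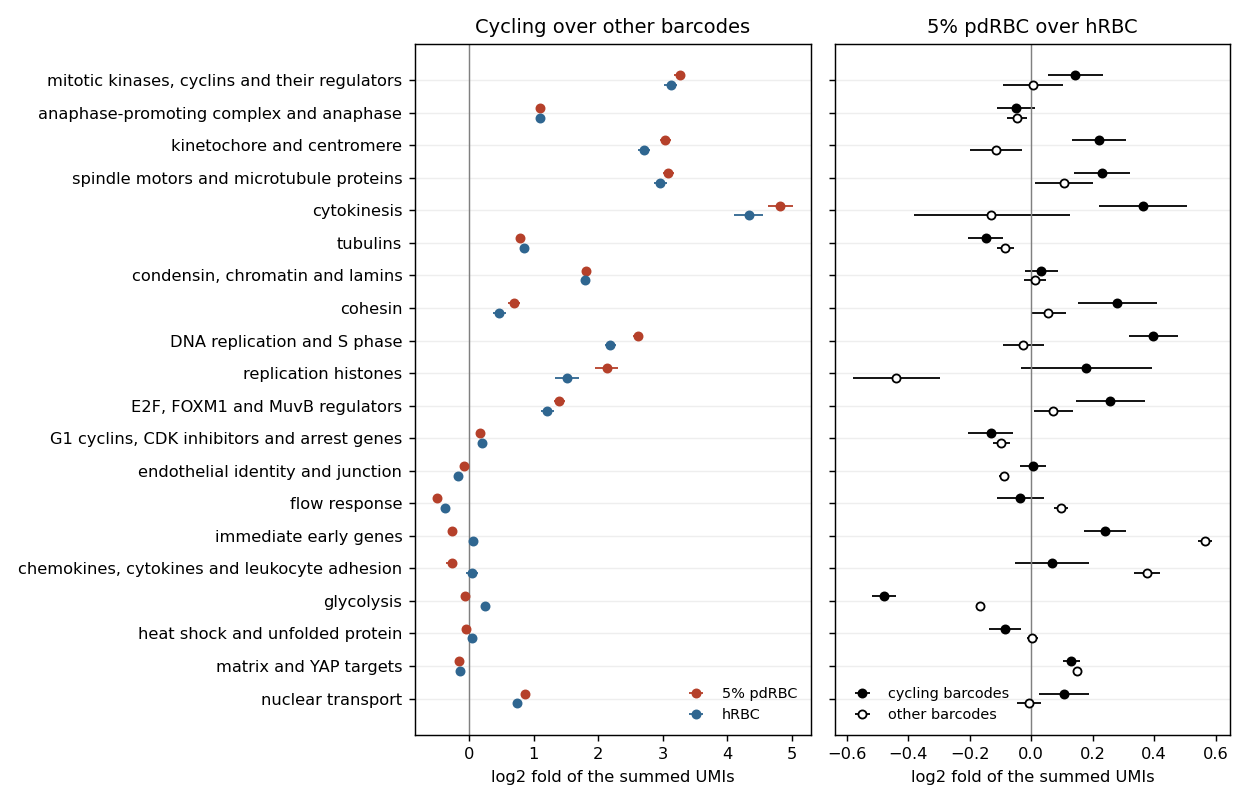
Log2 fold of the summed UMIs of each of 20 gene lists (x axis) with exact 95% intervals of counting error. The left panel sets cycling over other barcodes in the 5% pdRBC library (red) and the hRBC library (blue), and the right panel 5% pdRBC over hRBC within cycling (filled) and other barcodes (open); division lists lie above 0 on the left, and in the right panel the S phase list lies at 0.40 and glycolysis at -0.48 in cycling barcodes.

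Within the cycling barcodes the 5% pdRBC library was then set against the hRBC library. UMIs were summed over the cycling barcodes to 1341607 in the 5% pdRBC library and 1410981 in the hRBC library, and 4609 genes had 100 or more UMIs over both sums. Of these, 161 (3.49%) were 1.5-fold or more higher in 5% pdRBC and 70 (1.52%) were lower, 5.01% in all. The counts of single lists below stand beside these shares of all genes. Among the other barcodes, with deeper sums, 1.94% of 10369 genes were higher and 0.839% lower, 2.78% in all. The median log2 fold of all measured genes was 0.04 in the cycling barcodes. By total UMIs 2582 of the 4609 genes had folds above 1. Scaling by trimmed means (TMM) in place of total UMIs lowers each log2 fold by 0.11, and 78 genes (1.69%) were then past 1.5-fold higher and 148 (3.21%) lower. The median log2 fold of all measured genes was -0.07 under TMM. The direction of any small fold therefore rests on the scaling, and sums of lists are given with their TMM value where the direction turns. The genes named from the lists and rankings include 61 past 1.5-fold, some with fewer than 100 UMIs in the cycling barcodes, such as SELE and F3. Of these 61, 29 fell within 1.5-fold under 1 or more of the alternatives run. Under TMM 11 did, among them AURKB, CENPA, HJURP, TMPO, NCAPG, CLSPN, GINS2, VWF, KLF4 and MGP. With cycling barcodes thinned to 5000 UMIs 11 did, among them AURKB, KNL1, HJURP, TMPO, NCAPG, CDCA5, HIST1H4C, NOS3, MGP and HERPUD1. Under other alternatives CDC20 (0.527 to 0.674), GAPDH (0.595 to 0.674), ATAD2 (1.35 to 1.83), PTGS2 (1.45 to 1.91) and CXCL1 (0.417 to 0.741) did, with the range of the fold over all alternatives in brackets.

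Mitotic genes as a group stood close to the same level in the cycling barcodes of both libraries. Of the 62 measured genes of the 5 lists, 4 were past 1.5-fold higher in 5% pdRBC, 1 was lower and 57 lay between. Of all genes 3.49% were higher and 1.52% lower. Under TMM 1 of the 62 was higher and 1 lower, beside 1.69% and 3.21% of all genes. The median log2 fold was 0.15 against 0.04 for all genes. The lists summed to 8303 CPM in 5% pdRBC and 7652 CPM in hRBC cycling barcodes, a fold of 1.09 (1.06 to 1.11) that was 1.01 (0.980 to 1.03) under TMM.

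Among mitotic kinases and cyclins, AURKB was the gene past the limit, with 66.3 CPM in 5% pdRBC and 41.1 CPM in hRBC cycling barcodes (fold 1.61, 1.15 to 2.29). PLK1 had a fold of 0.936 (0.726 to 1.20) and CCNA2, which codes for cyclin A, one of 1.21 (0.940 to 1.56). CKS2, a small subunit bound to cyclin-dependent kinases, stood at 377 CPM in 5% pdRBC and 313 CPM in hRBC (1.21, 1.06 to 1.37). The sum of the list was 1.10-fold higher in 5% pdRBC (1.04 to 1.18), and 1.02-fold (0.963 to 1.09) under TMM. Folds above 1 were seen for 8 of its 11 measured genes, or 5 under TMM, beside 2582 of 4609 genes in all.

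At the kinetochore, the structure by which chromosomes hold on to the spindle, 3 of 15 measured genes were past the limit, each higher in 5% pdRBC. Of all genes 3.49% were higher. Under TMM 1 of 15, KNL1, was past the limit, beside 1.69% of all genes higher. KNL1, the scaffold that recruits checkpoint proteins, had 85 UMIs in 58 of 103 cycling barcodes of the 5% pdRBC library and 49 UMIs in 30 of 88 of the hRBC library (fold 1.82, 1.27 to 2.65), with a log2 fold of 0.86, or 0.34 thinned. CENPA, the histone that marks centromeres, had a fold of 1.55 (1.18 to 2.04), and HJURP, which deposits it there, a fold of 1.58 (1.07 to 2.39). The list's sum was 1.17-fold higher (1.10 to 1.24), and 1.08-fold under TMM.

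Among the anaphase-promoting complex and its partners 1 of 15 measured genes was past the limit, CDC20, which was lower in 5% pdRBC. Of all genes 1.52% were lower. CDC20 (chr1:43358955-43363203, plus strand) had 93 UMIs (69.3 CPM) in 5% pdRBC cycling barcodes and 148 UMIs (105 CPM) in hRBC cycling barcodes (fold 0.662, 0.504 to 0.862). It was detected in 47 of 103 cycling barcodes of the 5% pdRBC library and in 55 of 88 of the hRBC library, and with barcodes thinned to 5000 UMIs in 25.2% in 5% pdRBC and 33.0% in hRBC. PTTG1, which codes for securin, had a fold of 0.838 (0.703 to 0.996), and UBE2S, which extends ubiquitin chains for the complex, one of 0.888 (0.830 to 0.951). The other 14 measured genes of the list lay within 1.5-fold, and its sum had a fold of 0.966 (0.925 to 1.01). The median log2 fold of the list was 0.05, on the other side of 0, and -0.06 under TMM.

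Spindle and cytokinesis genes had no measured member past 1.5-fold in either direction. All 7 measured cytokinesis genes had folds above 1 (6 of 7 under TMM), beside 2582 of 4609 genes in all. ANLN was among them, at 120 CPM in 5% pdRBC and 88.6 CPM in hRBC (1.35, 1.07 to 1.73). TACC3, which stabilises spindle fibres, had a fold of 1.39 (1.06 to 1.83) and HMMR one of 0.753 (0.512 to 1.10). The tubulin list was at 0.903-fold (0.868 to 0.939). TUBA1B had 1183 CPM in 5% pdRBC and 1422 CPM in hRBC (0.832, 0.779 to 0.889). TUBB had 874 CPM in 5% pdRBC and 769 CPM in hRBC (1.14, 1.05 to 1.24). Tubulin genes resemble each other, so their reads may be divided between copies in counting.

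Of the condensin, chromatin and lamin genes, 3 of 14 measured were past the limit, each higher in 5% pdRBC, beside 3.49% of all genes. Under TMM 1 of 14, NCAPG2, was past it, beside 1.69% of all genes. NCAPG2, a subunit of the condensin that folds chromosomes, stood at 60.4 CPM in 5% pdRBC and 28.3 CPM in hRBC cycling barcodes (2.12, 1.44 to 3.19), and in the other barcodes its fold was 1.15 (0.741 to 1.83). TMPO, of the inner nuclear membrane, had a fold of 1.54 (1.11 to 2.16), and NCAPG, with 103 UMIs in 5% pdRBC and 72 UMIs in hRBC cycling barcodes, lay just past the limit. The sum of the list was 1.02-fold, and 0.949-fold under TMM, while its median log2 fold was 0.19, or 0.09 under TMM. CDCA5 (sororin, which secures cohesin on copied chromosomes) was the 1 of 10 measured cohesin genes past the limit, with 73 UMIs in 5% pdRBC and 42 UMIs in hRBC cycling barcodes (1.82, 1.23 to 2.74). With cycling barcodes thinned to 5000 UMIs its fold was 1.10, within the limit.

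S phase genes were on the higher side in 5% pdRBC cycling barcodes, and the part of the rule's raw count in this was not tested. Of 16 measured genes of the list, 15 had folds above 1 (14 under TMM), beside 2582 of 4609 genes in all. Past 1.5-fold higher were 3 of the 16, beside 3.49% of all genes. Under TMM 1, ATAD2, was past it, beside 1.69% of all genes. The list summed to 2136 CPM in 5% pdRBC and 1622 CPM in hRBC cycling barcodes, a fold of 1.32 (1.25 to 1.39) that was 1.22 (1.16 to 1.29) under TMM and 0.983 (0.939 to 1.03) in the other barcodes. ATAD2, a chromatin protein of replication, had a fold of 1.65 (1.16 to 2.39), and CLSPN, the checkpoint adaptor claspin, had 107 CPM in 5% pdRBC and 66.6 CPM in hRBC (1.61, 1.23 to 2.11). GINS2, a subunit of the replicative helicase, had a fold of 1.51 (1.06 to 2.19). TK1, thymidine kinase, reached 1.35 (1.07 to 1.72) and RRM2 1.17 (0.982 to 1.39), both short of the limit.

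Of 8 measured E2F, FOXM1 and MuvB regulators, 7 had folds above 1 (4 under TMM) and 1, E2F1, was past 1.5-fold. Among all genes 2582 of 4609 had folds above 1, and 3.49% were past 1.5-fold higher. The list's sum had a fold of 1.20 (1.11 to 1.29), or 1.11 (1.03 to 1.20) under TMM. E2F1, a transcription factor of S phase entry, had 71 UMIs in 5% pdRBC and 36 UMIs in hRBC cycling barcodes (2.06, 1.37 to 3.19). In the other barcodes its fold was 0.708 (0.441 to 1.15). MYBL2 had a fold of 1.30 (1.10 to 1.54) and FOXM1 one of 1.22 (0.971 to 1.54). Of the G1 genes, CCND1 (cyclin D1) had 340 CPM in 5% pdRBC and 483 CPM in hRBC (0.704, 0.624 to 0.794), and 0 of 11 measured were past the limit. HIST1H4C, a histone made during replication, had a fold of 0.661 (0.535 to 0.813), and it was the 1 histone of its list with 100 UMIs. With cycling barcodes thinned to 5000 UMIs its log2 fold was 0.0139, so its direction turns with thinning. The whole list of replication histones lay on the other side of 1, with 377 UMIs in 5% pdRBC and 350 UMIs in hRBC cycling barcodes (1.13, 0.977 to 1.31). HIST1H1E, below the minimum of 100 UMIs, had 44 UMIs in 5% pdRBC and 17 UMIs in hRBC cycling barcodes (2.67, 1.52 to 5.08).

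The cycling barcodes varied among themselves. The 5 mitotic lists made up a median of 78.8 UMIs per 10000 in 5% pdRBC cycling barcodes (34.0 to 156) and 69.8 in hRBC cycling barcodes (25.3 to 153), against 18.3 in the other 5% pdRBC and 18.4 in the other hRBC barcodes. The S phase list had a median of 18.1 UMIs per 10000 in 5% pdRBC cycling barcodes (4.88 to 62.4) and 14.2 in hRBC cycling barcodes (3.54 to 72.9). At 5000 UMIs per barcode the S phase medians were 9 UMIs in 5% pdRBC and 7 UMIs in hRBC cycling barcodes. The ranges of the libraries overlapped almost in full.

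S phase and mitotic levels were at most weakly related among the cycling barcodes. Pearson's r between them was -0.19 over the 103 cycling barcodes of the 5% pdRBC library (Spearman's rho -0.07) and 0.07 over the 88 of the hRBC library (rho 0.25). These are given as a description, since the points of a library share its depth and preparation. S phase genes and replication histones had r of 0.35 in the 5% pdRBC library and 0.43 in the hRBC library. RRM2 was detected in 83 of the 103 cycling barcodes of the 5% pdRBC library, of which 38 held CDC20 too, and in 73 of the 88 of the hRBC library, of which 46 did. It was seen in 2.61% of the other 5% pdRBC and 4.70% of the other hRBC barcodes.

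**Figure D4:**
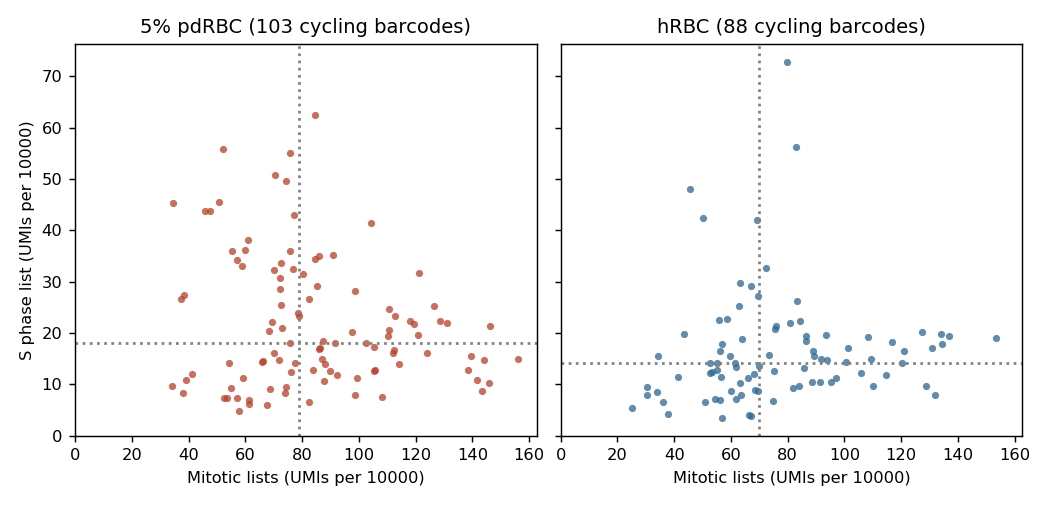
Each point is 1 cycling barcode, placed by its UMIs per 10000 in the 5 mitotic lists (x axis) and in the S phase list (y axis), in the 5% pdRBC library (left, 103 barcodes) and the hRBC library (right, 88). Dotted lines are the medians, at 78.8 and 18.1 in 5% pdRBC and at 69.8 and 14.2 in hRBC, and points with more than 40 UMIs per 10000 of the S phase list lie mostly left of 90 on the x axis.

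The cycling barcodes were grouped by their 8-gene sum, at 5 to 9, 10 to 19 and 20 or more UMIs, and groups of higher sum were also deeper. Median depths were 10872, 11396 and 14590 UMIs in the 5% pdRBC library and 12385, 15661.5 and 17379 UMIs in the hRBC library. PLK1 stood at 28.7 CPM in 5% pdRBC barcodes with sums of 5 to 9, at 55.1 CPM with 10 to 19 and at 173 CPM with 20 or more. In the hRBC library it stood at 35.6, 80.8 and 146 CPM over the same 3 ranges. CDC20 did not rise step by step in the 5% pdRBC library, with 49.6, 42.4 and 111 CPM, and had 57.5, 78.6 and 155 CPM in the hRBC library. The sums share their cells with these levels, so this describes the members only. PCNA, the clamp of the replication fork, had 44.3, 72.1 and 18.5 CPM in the 5% pdRBC library and 54.7, 43.7 and 32.3 CPM in the hRBC library. It was lowest where the sum was highest, which did not hold for every S phase gene. RRM2 had 164, 271 and 181 CPM in 5% pdRBC and 153, 223 and 158 CPM in hRBC. The whole S phase list had 2147, 2484 and 1790 CPM in 5% pdRBC and 1519, 1756 and 1581 CPM in hRBC. The list was thus lowest at the highest sums in 5% pdRBC and at the lowest sums in hRBC. VE-cadherin (CDH5) stayed between 443 and 487 CPM in the 5% pdRBC library and between 459 and 509 CPM in the hRBC library over the 3 ranges. Other endothelial markers moved more. VWF had 438, 460 and 485 CPM in 5% pdRBC and 348, 286 and 274 CPM in hRBC. PECAM1 had 608, 682 and 722 CPM in 5% pdRBC and 523, 622 and 534 CPM in hRBC.

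Beyond the division genes, the largest difference was LINGO1, a membrane protein known from neurons (chr15:77613027-77820900, minus strand). It had 24 UMIs in 21 of 103 cycling barcodes of the 5% pdRBC library and 245 UMIs in 76 of 88 of the hRBC library (fold 0.105, 0.0648 to 0.157). In the other barcodes its fold was 0.117 (0.101 to 0.135), of like size. FST (follistatin, an activin-binding protein) had a fold of 0.364 (0.251 to 0.513), with 44 UMIs in 12 cycling barcodes of the 5% pdRBC library and 128 UMIs in 17 of the hRBC library. S100A2 was at 0.395-fold, CRIP1 at 0.485-fold, PLVAP, the diaphragm protein of endothelial pores, at 0.533-fold, and the keratins KRT18 and KRT7 at 0.549-fold and 0.551-fold. DRG1, SNRPB2, ADAMTSL1, NDUFV3 and DDB2 completed the 12 furthest below, between 0.453-fold and 0.545-fold. DRG1 had 26.1 CPM in 5% pdRBC and 58.1 CPM in hRBC cycling barcodes, and in the other barcodes its fold was 0.987 (0.855 to 1.14).

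The 12 genes furthest above were led by ALDH1A1, an enzyme that makes retinoic acid, with 81.2 CPM in 5% pdRBC and 28.3 CPM in hRBC cycling barcodes (2.84, 1.98 to 4.23). MPDZ, a scaffold of cell junctions, had 87 UMIs in 58 of 103 cycling barcodes of the 5% pdRBC library and 32 UMIs in 24 of 88 of the hRBC library (2.83, 1.89 to 4.43). In the other barcodes its fold was 1.18 (1.03 to 1.34). FABP4, a fatty acid carrier, had a fold of 2.82, but 39 of its 92 UMIs in the 5% pdRBC library came from 1 barcode, and without the highest barcode of each library the fold was 2.50. HDAC9, a histone deacetylase, had a fold of 2.44, and 1.94 without them. ANGPT2, the TIE2 ligand released by activated endothelium, stood at 73.0 CPM in 5% pdRBC and 34.0 CPM in hRBC (2.14, 1.51 to 3.10). CEP128, a protein of the centriole, was at 2.29-fold (1.54 to 3.50) in cycling and 0.778-fold (0.477 to 1.29) in other barcodes. SIRPA, BTG3, ABHD5, MYO19 and NCAPG2 had folds of 2.12 to 2.29, and FOSB of 2.54.

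**Figure D5:**
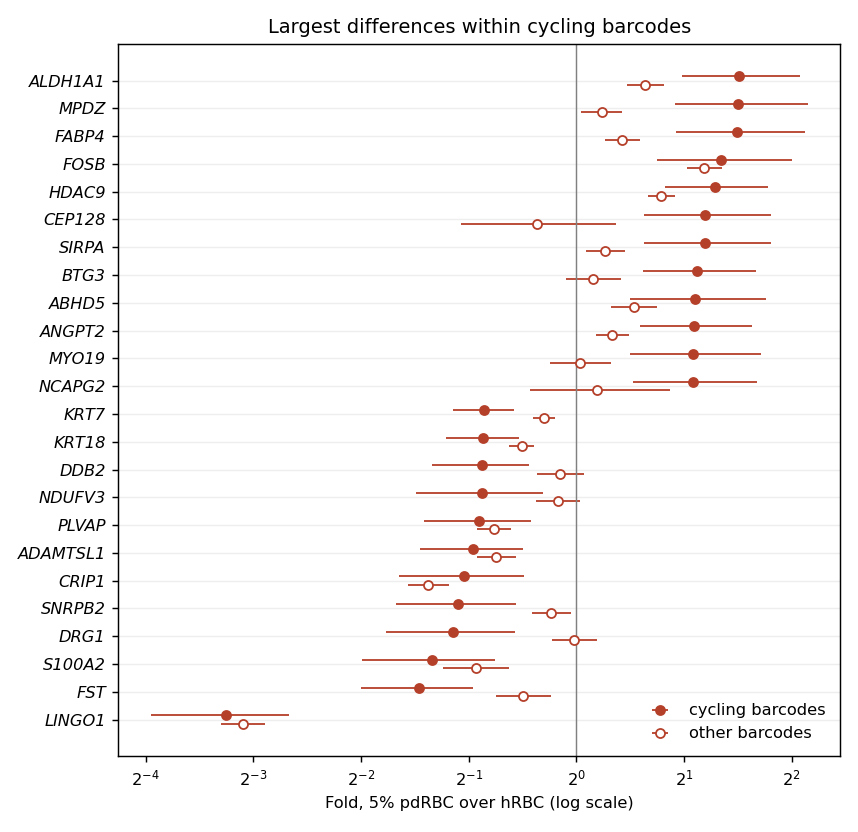
Fold of 5% pdRBC over hRBC (x axis, log scale) for the 12 genes furthest above and the 12 furthest below in cycling barcodes, with exact 95% intervals of counting error, in cycling barcodes (filled) and other barcodes (open). LINGO1 lies apart at 0.105 in cycling and 0.117 in other barcodes. CEP128 lies at 2.29 in cycling and 0.778 in other barcodes, and DRG1 at 0.453 in cycling and 0.987 in other barcodes.

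Glycolytic genes were lower in 5% pdRBC cycling barcodes. The 16 genes of the list summed to 6562 CPM in 5% pdRBC and 9140 CPM in hRBC cycling barcodes, a fold of 0.718 (0.699 to 0.738). Folds below 1 were seen for 10 of 12 measured genes, while 2582 of 4609 genes in all had folds above 1. GAPDH alone gave 4533 of the list's 8804 UMIs in 5% pdRBC and 7431 of 12897 UMIs in hRBC cycling barcodes. The median log2 fold of the measured genes was -0.25, nearer to 0 than the -0.48 of the sum. In the other barcodes the fold was 0.891 (0.883 to 0.900), with 6859 CPM in 5% pdRBC and 7695 CPM in hRBC. GAPDH, a central enzyme of glycolysis, was the 1 gene past 1.5-fold, with 3379 CPM in 5% pdRBC and 5267 CPM in hRBC cycling barcodes (0.642, 0.618 to 0.666). ENO1 (0.736), ALDOA (0.741), LDHA (0.751) and PGAM1 (0.796) stood on the same side. Cycling over other barcodes, the list was at 0.957-fold in the 5% pdRBC library and 1.19-fold in the hRBC library. The difference between these folds was not tested. Under all 14 alternatives run the log2 fold of the list within cycling barcodes stayed negative, between -0.59 and -0.41. The hRBC cycling barcodes were also the deeper ones, and the part of depth was not tested beyond thinning, which is 1 of these alternatives.

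Immediate early genes, switched on within minutes of a stimulus, had a smaller fold in cycling than in other barcodes, a difference that was not tested. The list had a fold of 1.18 (1.13 to 1.24) in cycling barcodes and 1.48 (1.46 to 1.51) in other barcodes. In cycling barcodes 12 of 13 measured genes had folds above 1 (9 under TMM), beside 2582 of 4609 genes in all. EGR1 had 44 UMIs in 5% pdRBC and 12 UMIs in hRBC cycling barcodes (fold 3.74), and its fold in other barcodes was 8.09 (6.48 to 10.3). ATF3 had folds of 1.42 (0.997 to 2.05) in cycling and 3.34 (2.93 to 3.84) in other barcodes, intervals that do not overlap.

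Whether endothelial genes as a list differed between the libraries rests on the scaling. In cycling barcodes the list had a fold of 1.01 (0.976 to 1.03), and one of 0.932 (0.905 to 0.960) under TMM. Its median log2 fold was -0.02. In the other barcodes the list's fold was 0.940 (0.931 to 0.949). VWF, the clotting factor carrier, stood at 463 CPM in 5% pdRBC and 297 CPM in hRBC cycling barcodes (1.56, 1.37 to 1.77), and in the other barcodes its fold was 1.06 (1.02 to 1.11). SOX18 (0.590, 0.494 to 0.701) and NOS3, the endothelial nitric oxide synthase (0.666, 0.487 to 0.900), were lower by nearly as much in the other barcodes, at 0.604 and 0.719. Of the flow-response list KLF4 was at 1.54-fold, against 1.98-fold in the other barcodes, and ANGPT2 and NOS3 were the other genes past the limit.

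Of the inflammatory genes, 5 of 19 were measured in the cycling barcodes, 1 with a fold above 1 and 4 below. Their median log2 fold was -0.28. The list's sum had a fold of 1.05 (0.965 to 1.14), or 0.972 (0.895 to 1.06) under TMM, and 1.30 (1.26 to 1.34) in the other barcodes. Past 1.5-fold were 1 higher and 1 lower, beside 3.49% and 1.52% of all genes. PTGS2 (cyclooxygenase 2) was higher in 5% pdRBC, with 223 CPM against 130 CPM in hRBC (1.71, 1.42 to 2.06), and CXCL1 was lower, with 28.3 CPM against 47.5 CPM in hRBC (0.600, 0.390 to 0.901). Of the CXCL1 UMIs in hRBC cycling barcodes, 21 of 67 came from 1 barcode, and without the highest barcode of each library the fold was 0.711 (0.434 to 1.14), within the limit. The adhesion receptors SELE and ICAM1 had too few UMIs to compare: SELE had 3 in 5% pdRBC and 0 in hRBC cycling barcodes, where a count of 0 allows up to 2.13 CPM, and ICAM1 had 17 in 5% pdRBC and 14 in hRBC cycling barcodes. Of the matrix and YAP target genes, 1 of 16 measured, MGP, was past 1.5-fold higher (0 under TMM), beside 3.49% of all genes. The sum of the list had a fold of 1.10 (1.07 to 1.12), or 1.02 (0.996 to 1.04) under TMM. Of the 16, 12 had folds above 1 and 4 below (10 and 6 under TMM), beside 2582 of 4609 genes in all above 1. COL4A1, a basement membrane collagen, had 262 CPM in 5% pdRBC and 176 CPM in hRBC cycling barcodes (1.49, 1.27 to 1.76), LAMB1 a fold of 1.49 (1.24 to 1.80) and MGP one of 1.53 (1.32 to 1.77). ANKRD1 of the same list was lower, with 530 UMIs in 5% pdRBC and 741 UMIs in hRBC cycling barcodes. Its log2 fold was -0.41, and it stayed negative under all 14 alternatives.

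Of the heat shock and unfolded protein genes, HERPUD1 was the 1 of 16 measured past the limit, with 31.3 CPM in 5% pdRBC and 52.4 CPM in hRBC cycling barcodes (0.600, 0.399 to 0.883). In the other barcodes its fold was 1.13 (0.994 to 1.28). The list summed to a fold of 0.943 (0.909 to 0.978). No gene of the nuclear transport list passed 1.5-fold among 10 measured, and its sum was 1.08-fold (1.02 to 1.14), or 0.999-fold under TMM.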

How the data were processed

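Single-cell 5′ RNA libraries of HUVECs (10x Genomics, kit version 2) were analysed, 1 per group. The deposited values are raw UMI counts of each gene in each barcode. Per the file headers, the authors used Cell Ranger 7.0.0, which the submitters' processing notes name too, with GRCh38. The sources used here give neither annotation release nor use of strand, so overlapping, antisense and near-identical genes are uncertain. Of 36601 genes, 34616 (94.6%) matched GENCODE 29 by identifier, used for gene positions.

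Barcodes were chosen by the rule above, and no cell type clustering, batch correction or doublet caller was run. Barcodes above 25000 UMIs were left out as an alternative. UMIs were summed per library, divided by the total to CPM, and compared as folds with 0.5 UMIs added to each sum. Measured genes hold at least 100 UMIs in the 2 sums together, and 3 counts are 2.24 CPM in 5% pdRBC and 2.13 CPM in hRBC cycling barcodes. Intervals are exact 95% intervals of the split of a gene's UMIs and were tested on simulated data. Since UMIs of 1 cell are not independent, they are too narrow for differences between cells.

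Named genes are the 8 genes of the rule, the 15 furthest above and 10 furthest below the other barcodes in both libraries at 100 or more UMIs in the cycling sums, the 12 largest folds each way between the libraries with an interval leaving out 1, and up to 4 per list. Mitochondrial, ribosomal protein, hemoglobin, clone-named, LINC and sex-linked RNA genes were left out of these. Genes given for contrast beyond these, such as CDH5, PCNA and RGS5, were chosen after their values were seen. Cycling barcodes, gene lists and motifs were chosen with earlier results of these data known. Python 3.11.15, numpy 2.4.6, scipy 1.17.1 and pandas 2.3.3 were used.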

Additional observations from a re-analysis of the deposited data

Results flagged for a closer look

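Signal of the 8 mitotic genes was present in barcodes that the depth filter left out. In the 5% pdRBC library 6 of 266 such barcodes (2.26%, exact 95% interval 0.832 to 4.84) had 5 or more UMIs over the 8 genes, with a median of 3904 UMIs. In the hRBC library 41 of 3089 (1.33%, 0.954 to 1.80) did, with a median of 2331 UMIs. They enter no comparison here.

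For 4 named genes the fold of 5% pdRBC over hRBC lay on opposite sides of 1 in cycling and in other barcodes, with both intervals leaving out 1. These differences were not tested. HMOX1 had a log2 fold of -0.21 in cycling barcodes (fold 0.864, 0.757 to 0.985) and a fold of 1.16 (1.13 to 1.20) in the others. Of its 510 UMIs in hRBC cycling barcodes 59 came from 1 barcode, and without the highest barcode of each library the fold was 0.926 (0.807 to 1.06), an interval that holds 1. CDCA5 had a log2 fold of 0.86 in cycling barcodes (1.82, 1.23 to 2.74), and in the others, where it had 8 UMIs in 5% pdRBC and 14 in hRBC, a fold of 0.355 (0.126 to 0.884). With cycling barcodes thinned to 5000 UMIs its fold there was 1.10. EMCN, an endothelial surface mucin, had a log2 fold of 0.42 in cycling barcodes (1.34, 1.09 to 1.65) and a fold of 0.909 (0.855 to 0.966) in the others. COL4A1 had a log2 fold of 0.58 in cycling barcodes (1.49, 1.27 to 1.76) and a fold of 0.900 (0.856 to 0.947) in the others.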

How the results depend on the processing

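The share of cycling barcodes (7.52% in 5% pdRBC, 11.4% in hRBC) was 9.13% in 5% pdRBC and 14.0% in hRBC at a sum of 3 or more, and 5.11% in 5% pdRBC and 7.67% in hRBC at 10 or more. It was 10.1% in 5% pdRBC and 15.1% in hRBC at 10000 UMIs or more per barcode, and 4.89% in 5% pdRBC and 5.59% in hRBC with barcodes thinned to 5000 UMIs. At 2000 UMIs or more it was 6.94% in 5% pdRBC and 8.53% in hRBC. Of 3 choices made after seeing the data, thinning with a sum of 3 or more gave 6.79% in 5% pdRBC and 9.88% in hRBC, and with the other 2 hRBC was the lower: 6.84% in 5% pdRBC and 3.36% in hRBC with no minimum, and 6.30% in 5% pdRBC and 2.28% in hRBC of all deposited barcodes.

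Genes past 1.5-fold higher in 5% pdRBC cycling barcodes (161) numbered 1106 at a gene minimum of 20 UMIs, 35 at 200, 4251 with none, 102 with median-of-ratios scaling, 78 with TMM, 47 with cycling barcodes thinned and 99 without those of sum 20 or more. Genes lower (70) numbered 361, 26, 2568, 111, 148 and 37 under the first 6 of these. Genes higher in cycling than other barcodes of both libraries (715) numbered 1214 at 20 UMIs and 6453 with no minimum, and genes lower (287) 543 and 650.

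The log2 fold of the mitotic lists within cycling barcodes (0.12) was 0.0535 at a sum of 3 or more, 0.0741 at 10000 UMIs, 0.0724 without barcodes above 25000 UMIs, 0.0250 at a gene minimum of 200, 0.0450 with median of ratios, 0.00902 with TMM, 0.17 thinned and 0.16 without sums of 20 or more. Over other barcodes it was 2.11 in 5% pdRBC, and 1.99 at a sum of 3, 2.18 at 10, 2.07 without barcodes above 25000 UMIs, 1.83 at a gene minimum of 200, 1.99 with median of ratios, 1.98 with TMM and 2.15 thinned. In hRBC it was 1.95, and 1.73 at a gene minimum of 200, 1.90 with median of ratios and 1.89 with TMM.

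Directions turned for 5 of the values past their limit (an interval leaving out 1 for a list's sum, 1.5-fold for a gene): the G1 list (0.00661 without sums of 20 or more), nuclear transport (-0.00156 with TMM), HIST1H4C (0.0139 thinned), CXCL8 (-0.54 thinned) and F3 (-0.24 at a sum of 10). Of the list sums not past it, all 6 turned under some alternative: condensin (log2 fold between -0.08 and 0.10), anaphase (-0.16 to 0.04), endothelial (-0.10 to 0.03), flow response (-0.14 to 0.0075), chemokines (-0.12 to 0.32) and replication histones (-0.60 to 0.64). Of 106 named genes within 1.5-fold, 35 turned, CDCA8, CKAP2L, MAD2L1 and SMC3 among them. The cause was not tested. Of 61 named genes past 1.5-fold, 58 kept their direction under every alternative run. The 61 are not all measured genes. They include some with few UMIs in the cycling barcodes, such as SELE (3 in 5% pdRBC and 0 in hRBC) and F3 (8 in 5% pdRBC and 5 in hRBC). No paired analysis was possible because each group is 1 library.

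Each group is 1 library, so the treatment, the device, the capture and the sequencing depth cannot be told apart. Numbers of genes past 1.5-fold varied most with the UMI minimum per gene.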
